A study of Danio rerio with 6 samples.

Results

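The 10 hypothalamic and neural regulators, nkx2.4a, nkx2.4b, nkx2.1, rx3, lhx2b, six3a, six3b, otx2, tcf7l2 and fgf3, were followed across well groups and ages in single-cell RNA-seq of the zebrafish pituitary. The 10 genes were taken by name from 31417 gene rows, of which 18745 had at least 1 UMI (unique molecular identifier, a count of captured transcripts) in the wells used. Each gene had its own row in the count tables. No value of these 10 genes entered the grouping of wells, which used measured counts of other markers. The genes and the well rules were both chosen with earlier results of these data known.

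All fish were of the AB strain and carried Tg(pomca:EGFP), a green reporter driven by the pomca promoter. All received an injection of β-Ala-Lys-Nε-AMCA at 4.6 mM, a dipeptide that carries a fluorescent dye, and their pituitaries were taken 3 hours later. There were 3 ages, 37 days post-fertilization (dpf; juveniles, 5 µl), 5 months and 7 months (males, 10 µl). Each age was 1 pool of 5 pituitaries sorted onto 2 plates of 384 wells and described by the labels as enriched for the neurohypophysis, so the 2 plates of an age share their fish and p-values describe plates, not fish. The assay was MARS-seq, which barcodes polyadenylated RNA well by well.

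The neurohypophysis is the posterior lobe of the pituitary. It grows out of the floor of the hypothalamus, and its resident glia, the pituicytes, surround the endings of hypothalamic neurons that release oxytocin and vasopressin. Homeobox factors of the Six3, Rx, Nkx2.1, Lhx2 and Otx families mark or shape the early forebrain and hypothalamus. In the mouse, Nkx2-1, Lhx2 and Otx2 are needed for a normal posterior lobe. Fgf3 is a growth factor secreted by the ventral diencephalon that the zebrafish pituitary requires, and Tcf7l2 is a transcription factor at the end of the Wnt signalling pathway.

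Plates held from 105793 to 1178471 UMIs, and 1390 wells had at least 400 UMIs, 650 at 37 dpf and 740 at the adult ages. Among the adult wells, 149 with 5 or more UMIs of cyp26b1, the gene of an enzyme that breaks down retinoic acid, were called pituicyte wells. The others fell into 59 wnk1b-positive epithelial, 43 gonadotropin-rich, 137 stromal and 50 macrophage wells, 301 wells that met no rule, and 1 well of the other glia class (slc1a2b and no cyp26b1). At 37 dpf there were 9 pituicyte, 10 other glia, 234 stromal, 42 macrophage, 3 wnk1b-positive and 352 remaining wells and 0 gonadotropin-rich wells. Of the 10 pituicyte markers listed, the adult pituicyte wells, with 176851 UMIs in all, held 4424 UMIs of cyp26b1, 1028 of cyp19a1b, 142 of fabp7a, 44 of s100b, 25 of glula, 2 of mgll and 1 of slc1a2b. The glial markers gfap, slc6a11a and dkk3a were at 0 there, and glula was more abundant in stromal wells, with 60 of 151976 UMIs. The name other glia was not borne out, since 2 of its 37 dpf wells held 77 and 115 slc1a2b UMIs and the other 8 held 1 or 2. The 4 adult plates were of 1 sequencing batch, 1 plate of 37 dpf of another, and the second was not listed.

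The 10 regulators were higher in pituicyte wells than in the sum of all other adult wells. Pituicyte wells held 17.9% of adult UMIs but 48.4% to 100% of the UMIs of each regulator. All 10 otx2 UMIs and 10 of 11 fgf3 UMIs lay in pituicyte wells, as did 21 of 25 for rx3 and 22 of 27 for nkx2.4b. The lowest shares were those of six3a, with 60 of 124, and tcf7l2, with 22 of 39. For comparison, cyp26b1, which defined the group, had 94.2% of its adult UMIs there.

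Within adult pituicyte wells six3b was the most abundant, at 554 CPM (UMIs of a gene per 1000000 UMIs of the summed wells; 95% Poisson interval 450 to 675), followed by six3a at 339 CPM (259 to 437). The intervals of these 2 genes did not overlap each other or that of the next gene. The next were tcf7l2 and nkx2.4b at 124 CPM each, rx3 at 119, lhx2b at 102, nkx2.1 at 90.5, nkx2.4a at 79.2, and otx2 and fgf3 at 56.5 each. Each of these 8 overlapped its neighbour in the order, so their order is not resolved at this depth. Levels are of tagged transcripts and were not corrected for length. Intervals cover counting error only.

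The Six3 paralogs carried the clearest values. In the pituicyte wells of the 5-month plates six3b stood at 534 and 667 CPM, against 63.6 and 50.1 CPM in all other wells. At 7 months its pituicyte values were 554 and 429 CPM, against 144 and 204 CPM. Every pituicyte value lay above every other value, and the 2 highest of the other wells were those of 7 months. For its paralog six3a the pituicyte wells of the 5-month plates held 243 and 334 CPM, against 82.1 and 27.3 CPM elsewhere. Those of the 7-month plates held 488 and 322 CPM, against 151 and 55.6 CPM, again with no overlap. The share of all genes without overlap is not given. A six3b UMI was found in 39.6% of pituicyte wells (31.7% to 47.9%, Clopper-Pearson) and a six3a UMI in 28.9% (21.7% to 36.8%). After each well was thinned to 400 UMIs these shares were 22.1% and 8.05%. In macrophage wells, which serve as a background, six3b had a UMI in 8% of wells at a median of 3059.5 UMIs a well, against 1009 in pituicyte wells, and six3a had none.

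The retinal homeobox gene rx3, known in zebrafish for the eye field and the hypothalamus, stood in pituicyte wells at 129.5 and 95.3 CPM on the 5-month plates and 155 and 71.5 CPM on the 7-month plates. The other wells of the same plates held 7.95, 0, 6.28 and 0 CPM, all below the pituicyte values. For lhx2b, a LIM homeobox gene, the pituicyte values of the 4 plates, in the same order, were 146, 119, 88.6 and 0 CPM. The plate at 0 fell below its own other wells, at 18.5 CPM, which was 1 UMI, so the groups overlapped for lhx2b.

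The 3 Nkx2 genes each had pituicyte values above those of the other wells on all 4 adult plates, with no overlap. In pituicyte wells nkx2.4b ranged from 44.3 to 322 CPM, nkx2.1 from 23.8 to 215 CPM and nkx2.4a from 23.8 to 177 CPM. In the other wells none of them exceeded 18.8 CPM. The lowest pituicyte value of each gene came from fewer than 3 UMIs, the limit that a count of 0 allows. The lack of overlap thus rests on few counts, and the share of all genes without overlap is not given here. These rows are close paralogs whose names have been exchanged in gene tables: the RefSeq table lists nkx2.4b as a synonym of nkx2.1 and lists nkx2.1 and nkx2.4a as synonyms of nkx2.4b. Row names are used as deposited, and reads may have been split among the 3 rows, as they may between six3a and six3b.

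The Otx gene otx2 (otx2b in the RefSeq table) had 3, 4, 0 and 3 UMIs in the pituicyte wells of the 4 adult plates, in the order 5 months and 7 months, and 0 UMIs in the other 591 adult wells. The otx2 level in pituicyte wells was 15.3-fold that of 3 counts in the other wells, the limit that 0 allows. With counting error in both groups taken in, the lower bound of the ratio of pituicyte to other wells was 10.3. The growth factor gene fgf3 had 3, 5, 2 and 0 UMIs in pituicyte wells and 1 UMI elsewhere. So otx2 was at 0 in the pituicyte wells of the first 7-month plate and fgf3 in those of the second. Of tcf7l2, the pituicyte wells of the 4 plates had 146, 23.8, 177 and 143 CPM, and the other wells 10.6, 9.11, 44.0 and 74.1 CPM. The pituicyte wells were higher on each plate, but the lowest pituicyte plate lay below the highest other plate.

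**Figure D1:**
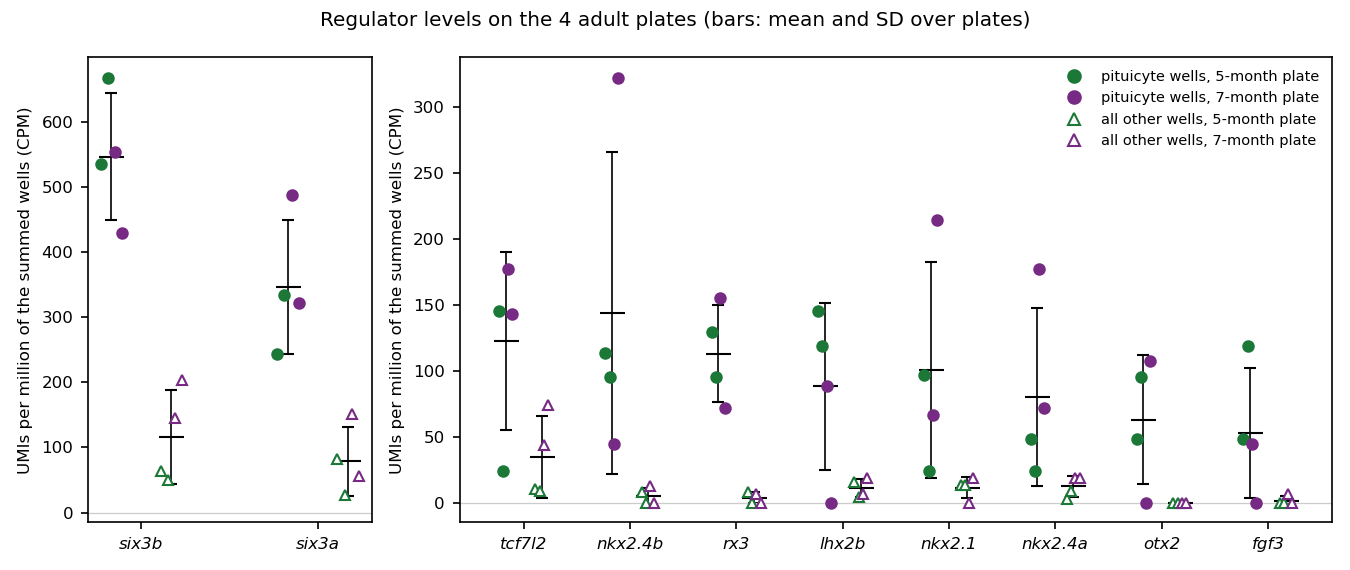
Level of each regulator (CPM of the summed wells) in pituicyte wells (filled circles) and all other wells (open triangles) on each of the 4 adult plates, with the mean and SD over plates. All 4 circles lie above all 4 triangles for six3b, six3a, rx3 and the 3 Nkx2 genes. For lhx2b, otx2, tcf7l2 and fgf3 a low plate meets the triangles. The share of all genes with such a separation is not given.

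Over the summed adult wells the ratio of pituicyte to other wells was 6.51 (95% counting interval 4.73 to 8.99) for six3b, 4.29 (2.97 to 6.21) for six3a and 5.93 (3.01 to 11.9) for tcf7l2. It was larger for rx3, at 24.1 (8.12 to 96.4), and for nkx2.4b, at 20.2 (7.45 to 68.1). For nkx2.4a and lhx2b it was 9.16 each and for nkx2.1 it was 8.14, with lower bounds of 3.46, 3.91 and 3.39. For fgf3, with 1 UMI outside, it was 45.8 (6.52 to 1988). Over the remaining wells alone the ratio was smaller for most genes. It was 3.49 (1.26 to 11.1) for nkx2.4a, 3.36 (1.39 to 8.94) for lhx2b and 2.66 (1.11 to 6.82) for nkx2.1. For six3a it was 1.87 (1.26 to 2.79), for tcf7l2 2.99, for rx3 7.85, for nkx2.4b 8.22 and for fgf3 15.0. For six3b it was 6.66, close to the value over all other wells.

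In the test over the 4 adult plates, with plate as a block, 4 of the 10 regulators passed the filter on low counts and all 4 were called higher in pituicyte wells. The background in that comparison was 22.9% of 1574 genes called in either direction, 13.5% higher and 9.4% lower. With edgeR's quasi-likelihood test and Benjamini-Hochberg adjustment, the log2 change was 2.32 ± 0.36 (SE) for six3b (adjusted p 3.32e-05) and 1.94 ± 0.37 for six3a (adjusted p 0.000322). It was 4.25 ± 0.72 for rx3 (adjusted p 8.22e-05) and 2.08 ± 0.58 for tcf7l2 (adjusted p 0.00978, edgeR). The filter itself favours a gene that is high in either group, and rx3, with 4 UMIs in the other wells, passed only through its pituicyte counts, so the 4 calls are not a sample of the 10 genes. The call for tcf7l2 was lost without the first 5-month plate (log2 change 1.36, adjusted p 0.181), with no filter beyond 1 UMI (1.48, adjusted p 0.231) and at cyp26b1 minimums of 2 and 10 UMIs (adjusted p 0.0717 and 0.0599), and held in the other 11 of 15 alternatives. With library-size scaling 257 of 350 called genes were higher, against 212 of 360 with TMM scaling, and the median log2 change of all genes moved from -0.02 to 0.19, small beside the 4 changes named.

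**Figure D2:**
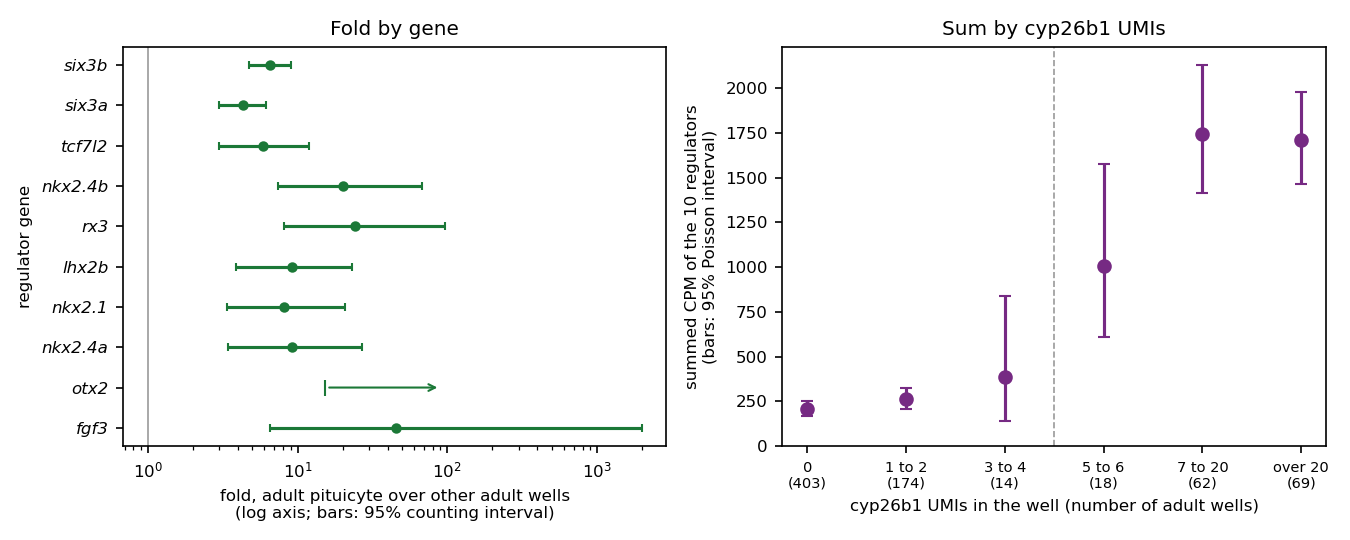
Left, ratio of adult pituicyte to other adult wells for each regulator with its 95% counting interval on a log axis. The arrow for otx2 starts at 15.3, its level over 3 counts in the other wells, and is not an interval. Right, the summed level of the 10 regulators in adult wells by number of cyp26b1 UMIs, with 95% Poisson intervals and a dashed line at the minimum of 5. All 9 intervals on the left lie above 1, and on the right the level is 384 CPM at 3 to 4 UMIs and 1009 CPM at 5 to 6.

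The summed level of the 10 regulators was lower in adult wells with under 5 cyp26b1 UMIs than in those with 5 or more. It was 205 CPM (168 to 249) in 403 adult wells with none, 260 CPM in 174 wells with 1 to 2, and 384 CPM (141 to 836) in 14 wells with 3 to 4, just outside the rule. Just inside it, 18 wells with 5 to 6 had 1009 CPM (608 to 1576), an interval that overlapped that of the wells with 3 to 4. Wells with 7 to 20 had 1745 CPM and wells with over 20 had 1708 CPM. Wells with over 20 were also deeper, at a median of 1312 UMIs against 672 in the wells with 5 to 6. Much of the sum was of the Six3 paralogs. In wells with no cyp26b1 UMI six3a and six3b had 35 and 44 of 104 UMIs, and in wells with over 20 they had 36 and 56 of 176. In wells with 5 to 6, nkx2.4a, nkx2.1, rx3 and otx2 had 0 UMIs, so the step is not shown for each gene. No test was made of these bins.

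Counted well by well, 67.1% of adult pituicyte wells had a UMI of at least 1 of the 10 regulators (59.0% to 74.6%), against 17.3% of the 591 other wells. After thinning to 400 UMIs the shares were 42.3% and 8.29%. Before thinning, the share was 45.8% of wnk1b-positive, 30.2% of gonadotropin-rich, 16.6% of remaining, 8% of macrophage and 5.11% of stromal wells. After it, these shares were 22.0%, 4.65%, 10.3%, 2% and 1.46%. Of the 100 pituicyte wells with any regulator, 59 had six3b and 43 had six3a, so the count leans on the Six3 paralogs. At least 2 regulators were seen in 41.6% of pituicyte wells and 3.72% of the others, and no well had more than 6. Within the group, 52.0% of the shallower pituicyte wells and 82.4% of the deeper ones had a UMI, and 41.3% and 43.2% after thinning. A six3b UMI, which 59 of all 149 pituicyte wells had, was found in 25 of 43 wells with a six3a UMI, 14 of 16 with rx3, 13 of 17 with lhx2b, 8 of 12 with nkx2.4a and 10 of 19 with nkx2.4b. It was found in 7 of 13 wells with nkx2.1, 6 of 8 with otx2, 6 of 10 with fgf3 and 7 of 17 with tcf7l2. These counts were not corrected for the depth of a well.

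**Figure D3:**
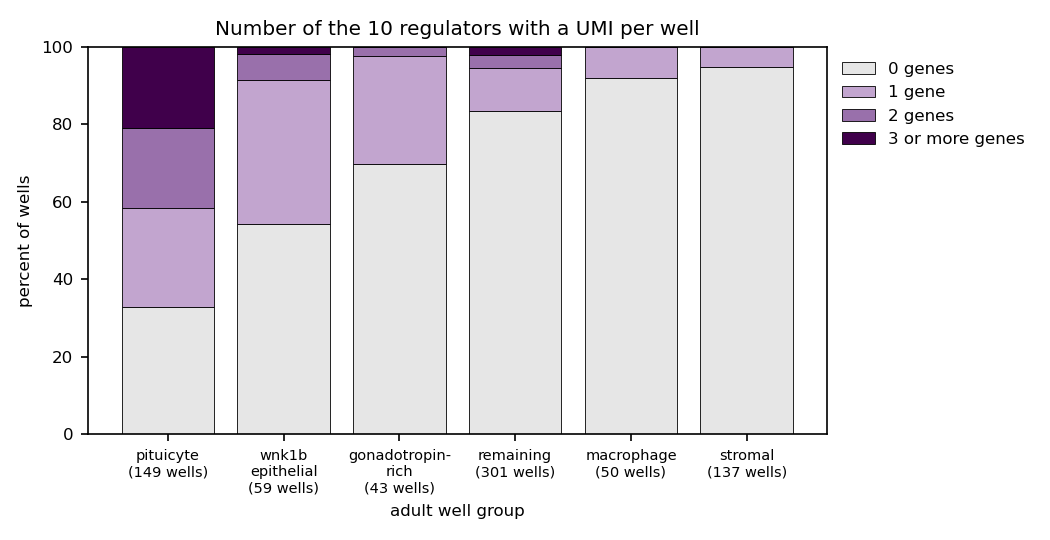
Share of adult wells in each group with UMIs of 0, 1, 2 or 3 or more of the 10 regulators. Pituicyte wells have none of the 10 in 49 of 149 wells and 3 or more in 31. The wnk1b-positive wells have none in 32 of 59, and stromal wells have none in 130 of 137.

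Against single groups of adult wells, all 8 regulators with enough counts had positive log2 changes in pituicyte wells. The other 2, nkx2.4a and fgf3, did not pass the filter. Of the 8, nkx2.4b, nkx2.1, rx3, lhx2b and otx2 had 0 or 1 UMI in each of these 4 groups and passed through counts elsewhere, so their direction was largely fixed by the filter and the counts of calls below are no sign of how the 10 genes behave as a set. Likewise tcf7l2 had 0 UMIs in gonadotropin-rich and macrophage wells and six3a had 0 in stromal and macrophage wells. Their direction against those groups was also largely fixed. Groups with fewer than 5 wells on a plate gave no sum there, so gonadotropin-rich wells entered from the 2 plates of 5 months and macrophage wells from 3 plates. Summed over their lists, markers of the other groups were also present in pituicyte wells. Over the 4 plates, 11 stromal genes had 1167 to 1928 CPM, 3 gonadotropin genes 143 to 2234 and 13 macrophage genes 0 to 243. The 5 epithelial genes of the wnk1b list had 1424.5 to 2145 CPM, mostly of krt8 (251 UMIs), with 51 UMIs of wnk1b. The part of these markers in the results was not tested. The edgeR quasi-likelihood test (Benjamini-Hochberg adjusted p at most 0.05) called 7 of 8 higher against macrophage wells, where 20.6% of 3928 genes were called, 12.7% higher and 7.84% lower. It called 6 of 8 against stromal wells (12.3% of genes called, 5.93% higher, 6.36% lower) and 5 of 8 against gonadotropin-rich wells (12.1%, 7.61% and 4.51%). Against wnk1b-positive wells it called 5 of 8 (7.43%, 4.89% and 2.55%). DESeq2 called 3, 2, 2 and 0 of them in the same order. The median log2 change over all genes was between 0.17 and 0.30 in these contrasts. With library-size scaling that of the wnk1b contrast moved from 0.21 to -0.08, with 135 of 277 called genes higher in place of 192 of 292.

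The changes of the Six3 paralogs were largest against stromal wells, at 7.08 ± 1.03 (SE) for six3a and 5.16 ± 0.71 for six3b, and against macrophage wells, at 6.94 ± 1.08 and 4.57 ± 0.70. Their adjusted p-values in edgeR's quasi-likelihood test were 4.64e-10, 2.56e-11, 6.94e-09 and 4.20e-09, and both genes were called against these 2 groups in all 18 alternatives. Gonadotropin-rich wells lay between, with 10 six3b UMIs (66.5 CPM) and 3 six3a UMIs, and the changes against them were 2.82 ± 0.64 and 3.52 ± 0.83 (edgeR adjusted p 0.000292 and 0.000493). Because six3a had 0 UMIs in stromal and macrophage wells, its fitted changes against these 2 groups depend on the prior count. Its level in pituicyte wells was 17.2-fold that of 3 six3a counts in stromal wells and 18.1-fold that of 3 in macrophage wells. With counting error in both groups taken in, the lower bounds of the six3a ratios to stromal and macrophage wells were 13.6 and 14.3. Against gonadotropin-rich wells tcf7l2, at 0 UMIs there, was called, and nkx2.4b and lhx2b, with 1 UMI each there, were not (edgeR adjusted p 0.0162, 0.0817 and 0.0689). Counts of 0 and 1 UMI do not set these genes apart. Against stromal wells, with 4 tcf7l2 UMIs, tcf7l2 was not called (2.16 ± 0.85, edgeR adjusted p 0.0752). The otx2 gene was called against none of the 4 groups, with edgeR adjusted p-values from 0.0760 to 0.219.

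The wnk1b-positive epithelial wells were the exception among the named groups for the Six3 paralogs. They held 30 six3b UMIs, 362 CPM (244 to 517), in 32.2% of 59 wells, and 13 six3a UMIs, 157 CPM (83.5 to 268), in 20.3%. On the 5-month plates six3b stood at 233 and 243 CPM there and on the 7-month plates at 518 and 397 CPM, and the highest of these lay within the range of the pituicyte wells. Against pituicyte wells six3b was not called (1.03 ± 0.46, edgeR adjusted p 0.190) in any of 18 alternatives, and six3a was called narrowly (1.70 ± 0.57, adjusted p 0.0436) and in 6 of 18. Of the other 8 regulators, tcf7l2 had 2 UMIs and 7 had 0 in these wells, which allows up to 36.2 CPM each. Of the 5 calls against wnk1b-positive wells, 0 to 2 were made when a plate was left out.

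Counted together, stromal, macrophage and gonadotropin-rich wells had 34.6 CPM of six3b, so wnk1b-positive wells were 10.5-fold higher (5.52 to 20.5), and for six3a the ratio was 24.2 (6.64 to 132). These ratios were computed after the values were seen and carry no test. They leave out the remaining wells, which had 182 CPM of six3a, above the 157 CPM of wnk1b-positive wells, and 83.2 CPM of six3b. In pituicyte wells there were 2.22 six3b UMIs and 1.36 six3a UMIs per 100 cyp26b1 UMIs, whereas wnk1b-positive wells had 115 (66.0 to 203) and 50.0 (23.6 to 101). Since cyp26b1 defined the pituicyte wells, the gap between these ratios was largely set by the rule. For six3b the ratio was also 38.5 in gonadotropin-rich, 18.2 in macrophage, 15.8 in remaining and 3.51 in stromal wells. For six3a it was 11.5, 0, 34.5 and 0 in that order. Of cyp26b1, the wnk1b-positive wells had 314 CPM and the macrophage wells 138 CPM, with a UMI in 27.1% and 34.0% of wells. Of cyp19a1b they had 130 and 6 UMIs, beside 1028 in pituicyte, 12 in gonadotropin-rich, 17 in stromal and 368 in remaining wells. Of fabp7a and s100b the wnk1b-positive wells had 1 UMI each, of glula 17 and of gfap 4, among 82883 UMIs. Pituicyte wells had 142, 44, 25 and 0 in that order, among 176851. The other pituicyte markers listed, slc1a2b, slc6a11a, mgll and dkk3a, were at 0 in wnk1b-positive wells. Whether RNA of pituicytes has a part in the Six3 values of the wnk1b-positive wells was not tested. Of the 5 epithelial markers found, which include wnk1b itself, epcam had 82 UMIs, cdh1 12 and cldn7b 5 in these wells, against 1, 0 and 0 in pituicyte wells. Gonadotropin-rich wells had 25, 1 and 8 of 150267 UMIs, and remaining wells 47, 7 and 6 of 264443. So cldn7b did not set the wnk1b-positive wells apart from gonadotropin-rich wells. The keratin gene krt8 did not set them apart, with 111 of 82883 UMIs there, 251 of 176851 in pituicyte wells and 323 of 151976 in stromal wells.

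**Figure D4:**
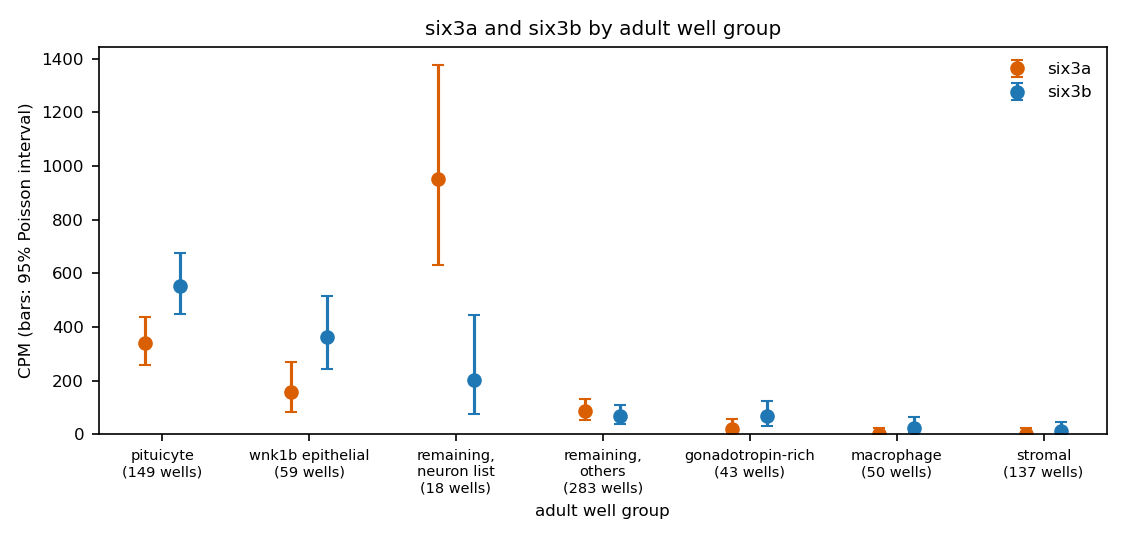
Level of six3a and six3b in adult well groups with 95% Poisson intervals. Both are high in pituicyte and wnk1b-positive wells, six3a is highest in 18 remaining wells that met a neuron list (951 CPM), and stromal and macrophage wells have 0 six3a UMIs and 13.2 and 25.0 CPM of six3b.

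The remaining adult wells held a further source of six3a. Of 301 such wells, 18 had at least 3 UMIs from at least 2 of 9 neuron genes, a split made after the values were seen and given without a test. In these 18 wells, on all 4 adult plates (8, 4, 5 and 1), six3a had 28 UMIs, 951 CPM (632 to 1374), in 11 wells, with at most 8 UMIs in a well. In the other 283 it had 20 UMIs, 85.1 CPM (52.0 to 131). Of the genes that chose the 18 wells, elavl3 led with 72 UMIs and stmn2a had 40, while oxt and avp, the hormones of the posterior lobe, were at 0. In the 18 wells lhx2b and six3b had 6 UMIs each (204 CPM, 74.8 to 444) and nkx2.4a had 5 (170 CPM, 55.1 to 396). The values of lhx2b and nkx2.4a lay above their adult pituicyte levels of 102 and 79.2 CPM, with overlapping intervals, and that of six3b lay below its 554 CPM. In these wells otx2 and fgf3 had 0 UMIs. The pituicyte marker cyp26b1 was also present, with 14 of 29444 UMIs in 11 of the 18 wells, each under the minimum of 5. Its bearing on the six3a level was not tested. Leaving these wells out of the comparison with all other adult wells kept 4 regulators called and gave six3a a log2 change of 2.63 ± 0.41 (edgeR adjusted p 0.000161), an alternative added after the data were seen.

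Between the adult ages no regulator was called within pituicyte wells. The edgeR quasi-likelihood test with Benjamini-Hochberg adjustment called 0 of 9 tested regulators, beside 4 of 1586 genes (0.252%; 0.189% higher and 0.0631% lower), with 112 genes and none of the 9 at an unadjusted p under 0.05. DESeq2 also called 0 of them. The largest difference was that of nkx2.4a, at 48.6 and 23.8 CPM on the 5-month plates and 177 and 71.5 CPM on the 7-month plates (log2 change 1.74 ± 0.86, adjusted p 0.735 in edgeR), with both 7-month plates above both 5-month plates. For lhx2b the log2 change was -1.27 ± 0.88 (adjusted p 0.825). The Six3 paralogs stood at 0.55 ± 0.47 for six3a and -0.25 ± 0.38 for six3b. Gene by gene these intervals are wide, and the values do not show that levels were equal.

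Outside pituicyte wells six3b was higher on the 7-month plates, as given above. The ages were not compared by a test in the other wells alone. The interaction of age and pituicyte wells, which also takes in the change within pituicyte wells, gave -1.55 ± 0.63 for six3b (p 0.0143, adjusted p 0.552, edgeR quasi-likelihood). No regulator of 9 was called in it (DESeq2 also 0), beside 8 of 2846 genes (0.281%), and six3b was the 1 regulator at an unadjusted p under 0.05. Beside this, wnk1b-positive wells numbered 24 at 5 months and 35 at 7 months, and gonadotropin-rich wells 40 and 3. Their part in the six3b difference was not tested. Over whole plates 0 of 10 regulators were called between 7 and 5 months (2.4% of 9540 genes called, 0.933% higher and 1.47% lower), with DESeq2 also at 0. At an unadjusted p under 0.05 were nkx2.4a (1.93 ± 0.83, adjusted p 0.262 in edgeR) and tcf7l2 (1.57 ± 0.61, adjusted p 0.184). This comparison had 89 of 229 called genes higher, and with library-size scaling 196 of 286.

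Summed over all kept wells of a plate, the regulators were higher in the adults than at 37 dpf. The edgeR quasi-likelihood test called 8 of 10 higher at 5 months, where 35.9% of 9540 genes were called, 14.4% higher and 21.4% lower. The 2 not called were nkx2.4a (log2 change 1.89 ± 0.98, adjusted p 0.118) and tcf7l2 (1.05 ± 0.61, adjusted p 0.174). At 7 months all 10 were called higher, where 32.5% were called, 11.6% higher and 20.9% lower. At 37 dpf lhx2b, otx2 and fgf3 had 0 UMIs, and nkx2.4b and rx3 had 1 each. These genes passed the filter through adult counts, so their direction was largely fixed by it. The counts of calls are therefore no sign of how the 10 genes behave as a set. At 7 months otx2 and fgf3 had 3 UMIs each, all on 1 plate. The changes for six3b were 4.48 ± 0.46 and 5.02 ± 0.47, and for six3a 5.35 ± 0.58 and 6.12 ± 0.58. Both comparisons share the 37 dpf plates, and age and sequencing batch cannot be told apart in them. At 7 months 1110 of 3101 called genes were higher with TMM scaling, and 1440 of 2780 with library-size scaling, and the median log2 change of all genes was -0.36 and 0.06. The plates also differ in the cells they hold, since pituicyte wells were 9 of 650 at 37 dpf and 149 of 740 in adults, so fewer cells of a type and less RNA per cell cannot be told apart in these sums.

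At 37 dpf 142 wells had at least 1% of their UMIs from the globin genes hbba1 and hbaa1, and no adult well did. Without them, an alternative added after the data were seen, 8 of 10 were called at each adult age. The calls for otx2 and fgf3 at 7 months were lost (edgeR adjusted p 0.0674 and 0.0732).

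**Figure D5:**
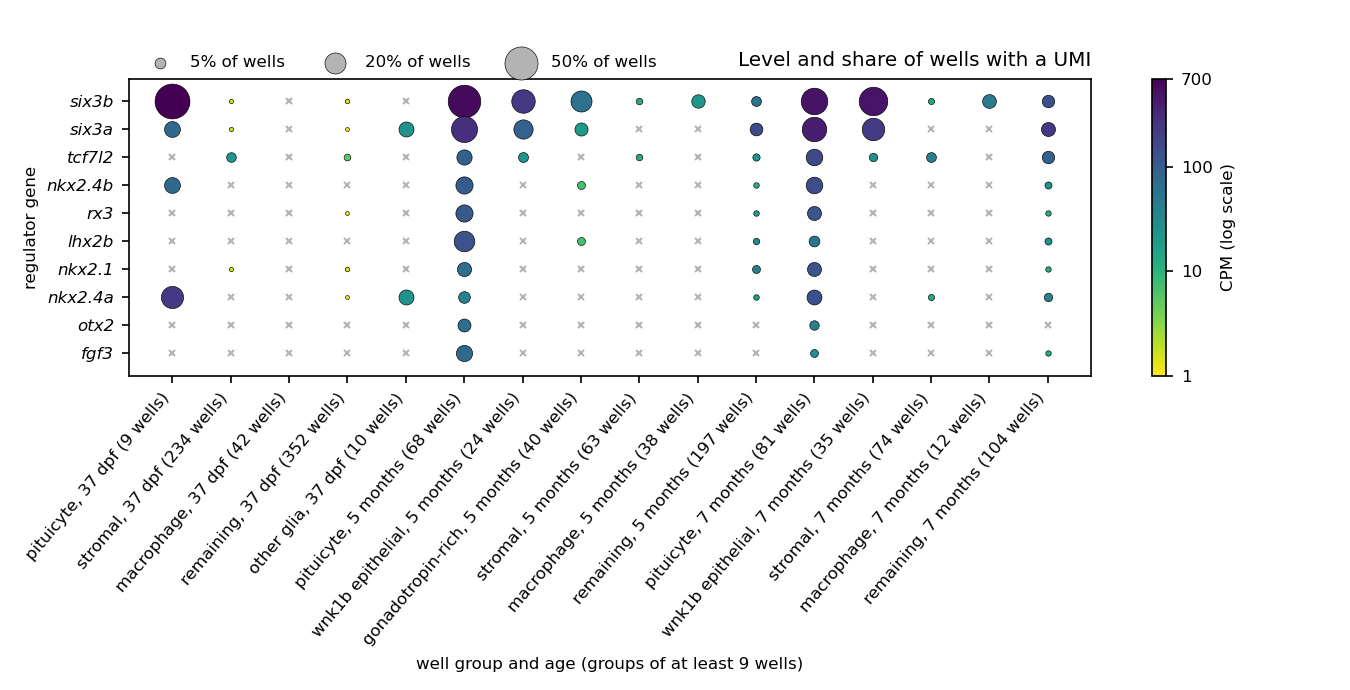
Level (colour, log scale, in CPM) and share of wells with a UMI (circle area) of each regulator in well groups of at least 9 wells at 37 dpf, 5 months and 7 months, with a cross where no UMI was seen. The adult pituicyte columns are filled for all 10 genes, and at 37 dpf six3b has 697 CPM in 9 pituicyte wells.

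Within pituicyte wells the juvenile values rest on 9 wells and 12908 UMIs. A single well held 4934 of these UMIs, with 54 slc1a2b, 132 fabp7a, 17 s100b and 2 nkx2.4a UMIs. The juvenile wells held 3 cyp19a1b UMIs, against 1028 in adult pituicyte wells, and 1 met the neuron list. Whether they hold the same cell type as the adult wells was not tested. In the juvenile pituicyte wells six3b had 9 UMIs in 5 of the 9 wells, 579 and 741 CPM on the 2 plates. The 579 CPM was 2 UMIs in 1 well. For six3b the ratio of adult to juvenile was 0.795 (0.402 to 1.79). Of the others nkx2.4a had 3 UMIs, nkx2.4b and six3a 1 each, and the remaining 6 had 0, which allows up to 232 CPM. Of these 6 none had an adult pituicyte level above that limit, so a difference was not detectable at this depth. Outside pituicyte wells six3b stood at 1.40 CPM at 37 dpf and 85.2 CPM in adults, a ratio of 60.9 (19.98 to 302). There six3a stood at 1.40 and 79.0 CPM, a ratio of 56.5 (18.5 to 281). Each juvenile value was 3 UMIs. The cells outside also differed, with 3 wnk1b-positive wells at 37 dpf and 59 in adults, and 142 globin-bearing wells at 37 dpf only. The ratios thus do not compare like cells, and mixture and level per cell cannot be told apart. At 37 dpf tcf7l2 was the most abundant regulator, with 21 UMIs on 2 plates (7.06 and 12.0 CPM), 14 of them in stromal wells, 7 in remaining wells and 0 in pituicyte wells. The 37 dpf stromal wells also held 7140 hbba1 UMIs, and the adult ones 0.

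By likeness of profile over 15 sums of wells of a group and age, the genes closest to six3b were cyp19a1b, the brain aromatase of teleosts (Pearson r 0.91), nanos1 (0.90) and six3a (0.88). Those closest to six3a were tmsb (0.94), cyp19a1b (0.92) and map1ab (0.90), and those closest to tcf7l2 were sfrp5, a secreted Wnt inhibitor (0.94), rgs5a (0.91) and cldn19 (0.90). Against cyp26b1 the values were 0.82, 0.73 and 0.84. The sums share plates and depth, and the values describe these 15 sums. The other 7 regulators had under 30 UMIs in kept wells and were not compared.

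Other genes of the same pathways, listed with earlier results known, were tested in pituicyte against all other adult wells (edgeR quasi-likelihood, Benjamini-Hochberg). Of 48 further hypothalamic and forebrain factors 5 passed the filter and all 5 were called higher, with a median log2 change of 2.5 against -0.02 for all genes. Among them were the T-box genes tbx3a (2.71 ± 0.35), tbx2a (2.86 ± 0.38) and the Six6 paralogs six6a (2.5 ± 0.35) and six6b (2.02 ± 0.52). On the 4 adult plates six6a had 308, 453, 576 and 465 CPM in pituicyte wells and 68.9, 45.6, 56.5 and 111 CPM in the others. The filter again favours genes that are high in 1 group. The counts of each list stand beside 22.9% of all genes called in this comparison, 13.5% higher and 9.4% lower.

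Of 31 FGF pathway genes 9 were tested, with a median log2 change of 1.43, and 4 were called higher and 0 lower. The 4 were etv5a and etv5b, transcription factors induced by FGF signals (2.05 ± 0.34 and 1.61 ± 0.44), and spry2 and spry4, feedback inhibitors of the pathway (1.69 ± 0.44 and 1.43 ± 0.41). Of 51 Wnt pathway genes 47 rows were found and 5 were tested, 1 higher and 1 lower, a count too small to set apart from the share over all genes. The higher was sfrp5 (3.97 ± 0.31; 1896 CPM ± 287, SD over the 4 plates, against 132 ± 103) and the lower sfrp1b (-2.44 ± 0.60, adjusted p 0.00382). Both code for secreted Wnt inhibitors. For frzb, of the same family, the log2 change was -1.86 ± 0.75 (adjusted p 0.0947) and for the receptor fzd8a 1.14 ± 0.45 (adjusted p 0.0770). Of 43 progenitor and radial glia factors 42 rows were found and 15 were tested, 9 higher and 2 lower, with a median log2 change of 1.54. The highest was fabp7a, a fatty acid binding protein of radial glia, at 5.17 ± 0.41, followed in the order of p by cx43 (3.13 ± 0.35), vim (2.5 ± 0.29) and s100b (3.35 ± 0.46). The 2 lower genes, her9 and ascl1a, were named after their values were seen (-2.29 ± 0.47 and -2.48 ± 0.59).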

How the data were processed

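The data were deposited count tables of UMIs per gene and well for 6 plates of 384 wells, raw counts with no normalization by the authors as far as the values show. Per the submitters' processing notes, bcl2fastq 2.15.0.4 and Seurat 3.1.5 were used with danRer10; the aligner and annotation are not given in the sources used here, and no coordinates or sequences are reported. The 10 genes, the well rules and the gene lists were chosen with earlier results of these data known. No paired numbers come from the labels: plates were numbered by accession order, and pairing was by plate, since pituicyte and other wells of 1 plate were compared within it.

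Wells with at least 400 UMIs were kept, and 1 kept well had over 30% mitochondrial UMIs. Groups were assigned in this order: pituicyte (5 or more cyp26b1 UMIs), gonadotropin-rich (lhb, fshb and cga at 5% or more of UMIs), macrophage (5 UMIs from 2 list genes), wnk1b-positive (3 wnk1b UMIs), stromal (5 UMIs from 2 list genes), other glia (1 slc1a2b UMI and no cyp26b1) and remaining. No doublet caller was run; 10 pituicyte wells also met the stromal rule and 3 the wnk1b rule. The 92 spike-in rows held 0 UMIs. No barcodes were shared between plates and no 2 wells had identical profiles.

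Counts were summed per plate and well group (at least 5 wells) and tested in R 4.3.3 with edgeR 4.0.16 (TMM, filterByExpr at a minimum count of 3 and a total of 10, robust quasi-likelihood fit, Benjamini-Hochberg at 0.05), with plate as a block within plates and age as the factor between them. The fit of the single well groups gave the 4 contrasts. cyp26b1 was left out of counts of calls where it set the groups. DESeq2 1.42.0, other scalings, filters, cell minimums and leaving out each plate were alternatives. The planned contrast with other glia could not be fitted, since 1 adult well belonged to it. Genes were named by rule: the 10 regulators, for those with 30 or more UMIs the 3 genes of at least 100 UMIs with the highest Pearson r of log2(CPM + 20), and up to 4 of each list with the smallest p; others are said to be chosen after their values were seen. Intervals are exact (Poisson, Clopper-Pearson) at 95%, and 3 counts are the limit a count of 0 allows. Some of the tests were also run on simulated counts without plate or pool effects, with changes placed only in genes that passed the filter. That setting differs from these data and lends no support to the calls given here. Depth ranged from 81949 to 1166584 UMIs of kept wells per plate.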

Additional observations from a re-analysis of the deposited data

Results flagged for a closer look

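Wells under 400 UMIs were not used in the comparisons, and they held 5 six3a UMIs in 4 wells and 4 tcf7l2 UMIs in 4 wells, above the 3 counts that a count of 0 allows. The other 8 regulators had 0 to 3 UMIs there.

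For tcf7l2 every adult plate had more CPM in pituicyte wells than in the others and every 37 dpf plate had less, because the 37 dpf pituicyte wells had 0 UMIs. The difference between the contrasts was -84.5 CPM for 37 dpf against 5 months and -111 CPM against 7 months. It was not tested, and 0 UMIs in 9 wells allow up to 232 CPM, above every adult pituicyte plate.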

How the results depend on the processing

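None of the regulators' log2 changes followed across alternatives changed sign. Where a gene had 0 or 1 UMI in the compared group or at 37 dpf, its direction was largely fixed, so the unchanged sign there is no sign of stability. Between 7 and 5 months the changes were followed for some regulators only. The balance of higher and lower calls over all genes did turn with library-size scaling, between 7 and 5 months (196 of 286 higher, in place of 89 of 229), at 7 months against 37 dpf (1440 of 2780, in place of 1110 of 3101) and against wnk1b-positive wells (135 of 277, in place of 192 of 292). Against all other adult wells 4 regulators were called; the default filter called 2 and sums per pool with the pool as replicate block 10, and leaving out a plate gave 3 to 7. Without the plate as replicate block 4 were called. Against wnk1b-positive wells the count of 5 became 0 with DESeq2, 3 with library size, 1 with the default filter, 3 with no filter, 0 at a minimum of 1000 UMIs, 0 at 2 cyp26b1 UMIs and 2 with sums per pool; leaving out a plate gave 0 to 2. Against gonadotropin-rich wells the count of 5 became 2 with DESeq2, 2 with the default filter, 3 with no filter, 2 at 2 cyp26b1 UMIs and 3 with sums per pool; leaving out a plate gave 1 to 5. Against stromal wells the count of 6 became 2 with DESeq2, 2 with the default filter and 3 at 2 cyp26b1 UMIs; leaving out a plate gave 3 to 5. Against macrophage wells the count of 7 became 3 with DESeq2 and 2 with the default filter; leaving out a plate gave 2 to 7. Against 37 dpf, the default filter called 2 at 5 months and 4 at 7 months, and leaving out a plate gave 5 to 8 and 6 to 8. The stricter filter tests fewer genes; the cause of the others was not tested. Between 7 and 5 months every alternative called 0. Counts of called genes over the whole table ranged from 160 to 701 around 360 in the first comparison, and from 1 to 28 around 4 within pituicyte wells. At 2 cyp26b1 UMIs six3b stood at 387 CPM and rx3 at 75.2 CPM in pituicyte wells. The depth of single regulators, 10 to 22 UMIs for 8 of them in adult pituicyte wells, limits what can be seen below several-fold.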
